A study of Mus musculus with 6 samples.

Results

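Prnd and Prnp are neighbouring genes of the prion family on mouse chromosome 2, and they are 2 of the 10989 genes in the deposited table. They were found by gene symbol. Both had been picked with their values in these libraries in view, so their levels in the 2 fractions are given as a description without a test. RNA was measured by directional sequencing of total RNA in 3 libraries of the Positive fraction and 3 of the Input fraction. The Positive libraries come from brain cells of mice carrying Tie2-cre and NuTRAP that were sorted as positive for EGFP and CD31 and negative for CD11b, which is the gate for endothelial cells. CD11b is a surface protein of microglia and other myeloid cells. The Input libraries share the tissue and the genotype and carry the fraction label Input; no label says more about how that fraction was taken. All 6 titles also carry the label WT, and the sources used here do not give age, sex or treatment. Replicate numbers 1222, 1223 and 1227 occur once in each fraction and are called biological replicates in the series text. In cells with Cre, the NuTRAP allele puts EGFP on ribosomes and mCherry on nuclei. Tie2 is the receptor encoded by Tek, and its promoter is active in endothelial cells and also in blood-forming cells.

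Prnp encodes the cellular prion protein, a copper-binding glycoprotein held on the outer cell surface by a glycosylphosphatidylinositol (GPI) lipid anchor. It is abundant in neurons and is made by many other cell types, and its misfolded form is the agent of prion disease. Prnd encodes Doppel, a shorter relative with the same kind of anchor that lacks the copper-binding repeats of the prion protein. Doppel is best known from testis, where male fertility in mice depends on it. In the brain it became known through mice in which some Prnp deletions placed Prnd under the Prnp promoter, after which Doppel in neurons was followed by loss of cerebellar cells. Expression of Prnd in brain endothelial cells has been described in young mice.

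Both genes are read from the plus strand. On mm10 the table places Prnp at chromosome 2, 131909928 to 131938431, and Prnd downstream of it at 131950861 to 131956130. The gap between them is 12429 bases, and their starts are 40933 bases apart. GENCODE M21, which is on the same build, gives Prnp a coding region of 762 bases that lies whole in the last of 3 exons of transcript Prnp-201. The coding region of Prnd has 537 bases and lies whole in the second exon of each Prnd transcript.

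The same annotation holds a further gene, Prn, whose transcripts read through from Prnp into Prnd. They use the first 2 exons of Prnp, add 1 exon in the gap between both genes and then join the later exons of Prnd. Of the 3211 exonic bases of Prnd 3122 (97.2%) are also exonic in Prn, the whole coding region among them. Only 145 of the 2343 exonic bases of Prnp (6.19%) are shared in this way. Prn was not analysed here, so the counts given for Prnd cannot be divided into RNA that starts at Prnd and RNA that starts at Prnp.

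**Figure D1:**
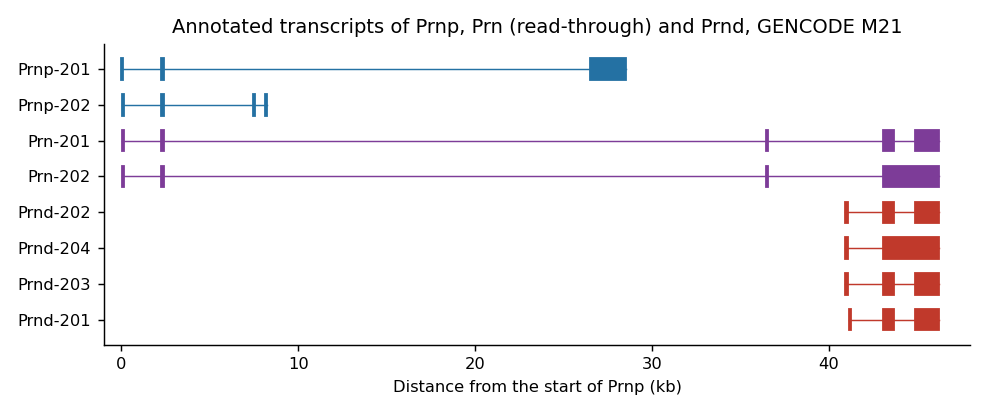
Annotated transcripts of Prnp (blue), the read-through gene Prn (purple) and Prnd (red) from GENCODE M21, drawn to scale by distance in kb from the start of Prnp, with boxes for exons and lines for introns. Prn shares its first 2 exons with Prnp and its last ones with Prnd, so 97.2% of the exonic bases of Prnd are also exonic in Prn.

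The 250 bases before the annotated start of each gene are shown because the 2 genes are neighbours that were on opposite sides of the comparison. The sequences come from RefSeq (GRCm38.p6, plus strand), at chr2:131950611-131950860 for Prnd and chr2:131909678-131909927 for Prnp. Of 2 start entries for Prnd, the one with the lowest position was used. In GENCODE the transcript Prnd-201 starts further downstream, at 131951037. Capitals mark matches to 4 of the 6 motifs searched on both strands: the GC box GGGCGG, the CCAAT box, the TATA-type words TATAAA and TATATA and the E-box CACGTG. The ETS core CCGGAA and the SOX core ACAATG had no match in either window.
Prnd: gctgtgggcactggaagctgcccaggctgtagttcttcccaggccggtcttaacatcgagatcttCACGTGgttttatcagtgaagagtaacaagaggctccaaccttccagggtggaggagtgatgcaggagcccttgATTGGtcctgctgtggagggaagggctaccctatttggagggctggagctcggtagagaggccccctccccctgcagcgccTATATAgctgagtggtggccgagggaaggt
Prnp: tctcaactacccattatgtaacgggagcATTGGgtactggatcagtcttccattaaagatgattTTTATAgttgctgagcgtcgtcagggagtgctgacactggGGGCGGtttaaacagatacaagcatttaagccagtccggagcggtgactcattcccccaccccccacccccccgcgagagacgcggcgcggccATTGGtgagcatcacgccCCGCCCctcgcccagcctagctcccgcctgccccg

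The window of Prnd held TATATA from 30 to 25 bases before its start, an inverted CCAAT box and an E-box, and no GC box. The window of Prnp held 2 GC boxes, 2 inverted CCAAT boxes and an inverted TATAAA that ends 181 bases before the start. Over the 32851 windows of the same length in the RefSeq table, 32.7% held a GC box, 33.8% a CCAAT box, 15.6% one of the TATA-type words and 6.02% the E-box. The ETS core was in 12.03% and the SOX core in 10.7%. Base composition was alike, with 58% G and C for Prnd and 58.8% for Prnp, but the Prnd window held 6 CG pairs and the Prnp window 17. Of all windows 49.6% had fewer CG pairs than that of Prnd and 76.5% fewer than that of Prnp. The window of the read-through gene Prn is identical to that of Prnp. These matches describe letters in the windows and say nothing of what binds there.

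Summed estimated counts were 23525401, 4772866 and 19708830 for 1222, 1223 and 1227 in Positive, and 31607627, 4814966 and 52283556 for the same numbers in Input. Both libraries of 1223 are therefore shallow, and low genes carry more counting error there. Marker lists describe the sort: all 12 endothelial markers were higher in Positive and all 8 microglial markers lower. Of the genes of the gate, Pecam1 (CD31) had log2 2.85 ± 0.13 (SE) and Itgam (CD11b) -2.77 ± 0.31. Perivascular macrophage markers went the other way from the microglial ones, with 5 of 6 higher in Positive. Over all 10989 genes 26.1% were higher in Positive and 29.4% lower (edgeR's quasi-likelihood test, Benjamini-Hochberg adjusted p below 0.05), and the median log2 fold change, Positive over Input, was 0.03. RNA amounts in a mixed fraction depend both on how many cells of a type it holds and on the RNA per cell, which cannot be told apart here.

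Prnd, the gene of Doppel, was low in Input and well measured in the sorted cells. In Positive it had 1115, 398 and 954 reads in 1222, 1223 and 1227, and in Input it had 104, 14 and 131 reads (estimated counts, rounded). In CPM, which is counts per 1000000 of the library size adjusted by TMM, Prnd reached 50.4, 88.2 and 50.5 in the Positive libraries, against 3.04, 2.80 and 2.40 in the Input libraries of the same numbers. The fractions were far apart, with the lowest Positive library well above the highest Input library. The means were 63.1 ± 21.8 CPM in Positive and 2.75 ± 0.32 CPM in Input (SD, n = 3 each). The fitted log2 fold change was 4.52 ± 0.29 (SE), or 22.9-fold.

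Prnd was the gene with the highest log2 fold change in the table, ahead of Fam124b at 3.64, which was named after its value was seen. That place is a description, since the gene was picked from this contrast. The deposited table keeps a gene when every library of at least 1 fraction has a raw value of at least 50, and Prnd was kept through Positive alone, because Input 1223 stood below that minimum. Such a gene had to be low in at least 1 Input library. Of the 583 genes kept in this way, which had a median log2 fold change of 0.82, Prnd ranked 1.

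Within the sorted libraries Prnd was highest in 1223. Positive 1223 stood at 88.2 CPM with a 95% Poisson interval of 79.8 to 97.4, against intervals of 47.5 to 53.5 in Positive 1222 and 47.4 to 53.8 in Positive 1227. These intervals cover counting error only, and separate libraries also differ beyond it: the biological coefficient of variation over all genes was 21.6%. The 3 Input libraries overlapped in their intervals, which ran from 1.53 to 4.69 CPM in 1223, from 2.48 to 3.68 in 1222 and from 2.01 to 2.85 in 1227. The log2 difference within a replicate number was 4.05 for 1222, 4.98 for 1223 and 4.40 for 1227. Positive 1223 also held the most choroid plexus marker RNA of the sorted libraries, with 916.8 CPM summed over 4 genes, against 459.8 in Positive 1222 and 347.6 in Positive 1227. In Input the same sum was likewise highest in 1223, at 6195 CPM, against 3412 in 1222 and 2747 in 1227. Prnd stood at 2.80 CPM in Input 1223, between 3.04 in Input 1222 and 2.40 in Input 1227. Endothelial markers summed over 12 genes stood at 31122 CPM in Positive 1223, 28086 in Positive 1222 and 29445 in Positive 1227. The part of either in the level of Prnd was not tested.

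Prnp, the gene of the prion protein, was abundant in both fractions and lower in the sorted cells. Its levels were 441.9, 517.5 and 538.6 CPM in the Positive libraries 1222, 1223 and 1227, against 876.4, 1040 and 1116 CPM in their Input counterparts. Every Positive library lay below every Input library, and both fractions had the same order of numbers, with 1222 lowest and 1227 highest. The means were 499.3 ± 50.8 CPM in Positive and 1011 ± 122 CPM in Input (SD, n = 3 each), a fitted log2 fold change of -1.02 ± 0.15 (SE). The difference was even across numbers: the sorted library held 50.4% of the Input level in 1222, 49.8% in 1223 and 48.3% in 1227. The SD of the within-number log2 differences was 0.032 for Prnp and 0.47 for Prnd.

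**Figure D2:**
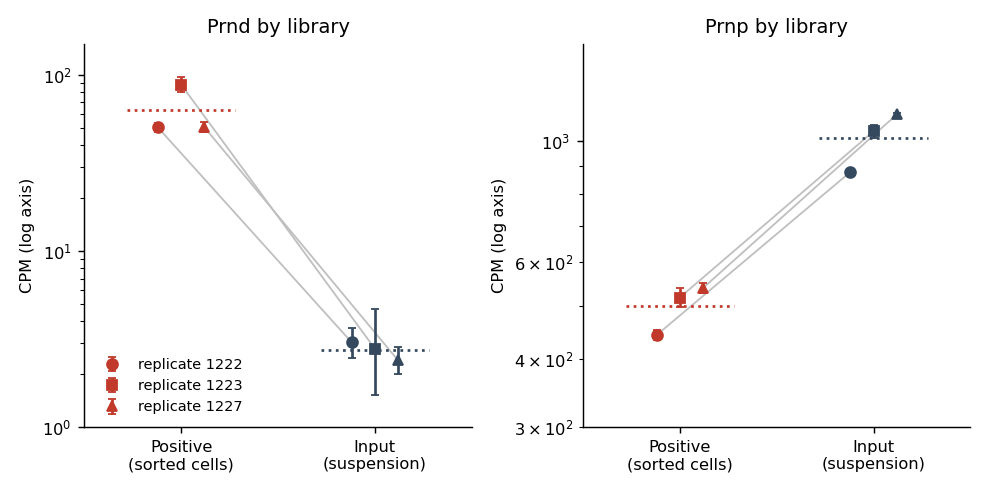
CPM (log axes with different ranges) of Prnd at left and Prnp at right in each Positive (red) and Input (dark) library, with marker shapes for replicate numbers, bars for 95% Poisson counting intervals, dotted lines for fraction means and grey lines joining libraries of the same number. Prnd is 50.4 to 88.2 CPM in Positive and 2.40 to 3.04 in Input, and Prnp is 441.9 to 538.6 CPM in Positive and 876.4 to 1116 in Input.

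Set against each other within a library, the 2 neighbours do not depend on scaling between libraries. Of the reads of both genes, Prnd took 10.2% (95% exact binomial interval 9.68 to 10.8) in Positive 1222, 14.6% (13.3 to 15.9) in Positive 1223 and 8.58% (8.06 to 9.11) in Positive 1227. In Input its part was 0.346% (0.283 to 0.419) in 1222, 0.268% (0.147 to 0.450) in 1223 and 0.215% (0.179 to 0.255) in 1227. The intervals cover counting error only. The mean part was 11.1% ± 3.09 in Positive and 0.276% ± 0.066 in Input (SD, n = 3 each).

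Prnp remained the more abundant of the pair in both fractions. Per kb of exon (3211 bases for Prnd and 2343 for Prnp), Prnd stood at 19.6 ± 6.79 CPM per kb in Positive and 0.855 ± 0.101 in Input (SD, n = 3 each). Prnp stood at 213.1 ± 21.7 CPM per kb in Positive and 431.4 ± 52.2 in Input. The level of Prnp per kb was 12.01, 8.04 and 14.6 times that of Prnd in Positive 1222, 1223 and 1227, and 395.1, 509.5 and 637.4 times in Input. These lengths join the exons of all transcripts of a gene. For Prnd they take in an exon of 3122 bases in Prnd-204, where Prnd-203 has exons of 574 and 1310 bases. With a shorter length Prnd would stand higher per kb and nearer to Prnp. Without any length, Prnp had 8.76, 5.86 and 10.7 reads per Prnd read in Positive 1222, 1223 and 1227. Among the 10733 genes with a length in GENCODE, 75.4% had a lower level per kb than Prnd in Positive and 0.932% in Input. For Prnp 98.3% were lower in Positive and 99.5% in Input. These shares cover only genes kept by the raw minimum, so most genes low in both fractions are absent. They give no rank among all transcripts of a fraction.

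Prnd exceeded the endothelial markers in its difference between fractions, and Prnp lay between the endothelial and the neural lists. The 12 endothelial markers had log2 fold changes from 2.36 to 3.203, with a median of 2.82, so all 12 were below the 4.52 of Prnd. Against the summed endothelial markers, Prnd had 1.80, 2.84 and 1.72 reads per 1000 in Positive 1222, 1223 and 1227, and 0.793, 0.527 and 0.605 in Input. Against Pecam1 alone, the gene of CD31, it had 25.4, 42.1 and 24.9 reads per 1000 in Positive and 11.4, 9.33 and 8.57 in Input. Both ratios were higher in Positive, which follows from the larger log2 fold change of Prnd. Since the gene was picked from this contrast, they are a description.

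Prnp differed less between the fractions than most markers of neurons, astrocytes, oligodendrocytes and microglia did. The median log2 fold change was -4.22 over 7 neuronal markers, -3.52 over 7 astrocyte markers, -4.64 over 6 oligodendrocyte markers and -2.85 over 8 microglial markers. All 28 of these were lower than Prnp, at -1.02 ± 0.15 (SE). Stmn2, the 1 neuronal marker kept in both fractions, was close to it at -1.19 ± 0.28 and was named after its value was seen. The neuronal markers summed to 45.6 to 69.6 CPM in Positive and 502.6 to 631.2 CPM in Input, and 6 of the 7 were kept in the table through Input alone. Astrocyte markers summed to 447.0 to 715.5 CPM in Positive and 4404 to 6768 CPM in Input. Oligodendrocyte markers summed to 586.7 to 1279 CPM in Positive and 17683 to 25341 CPM in Input. None of these lists was at 0 in Positive, and the part of such RNA in the level of Prnp there was not tested.

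Markers of pericytes and perivascular macrophages were also higher in Positive. Pericyte markers summed to 1226 to 1936 CPM in Positive and 654.3 to 774.3 CPM in Input (7 of 7 called higher), with a median log2 fold change of 1.29. Perivascular macrophage markers summed to 279.1 to 1945 CPM in Positive, highest in 1222, and 226.7 to 304.1 CPM in Input (5 of 6 called higher). In Positive 1223, where Prnd was highest, the pericyte sum was 1226 CPM and the macrophage sum 704.2 CPM. The part of these cells in the level of Prnd was not tested. The remaining lists were lower or mixed: 4 of 4 choroid plexus, 3 of 3 fibroblast and 1 of 2 smooth muscle markers were called lower, and of 3 precursor markers of oligodendrocytes 1 was called higher and 2 lower. Over all genes 26.1% were called higher and 29.4% lower. These remaining lists hold too few genes to set against those shares.

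**Figure D3:**
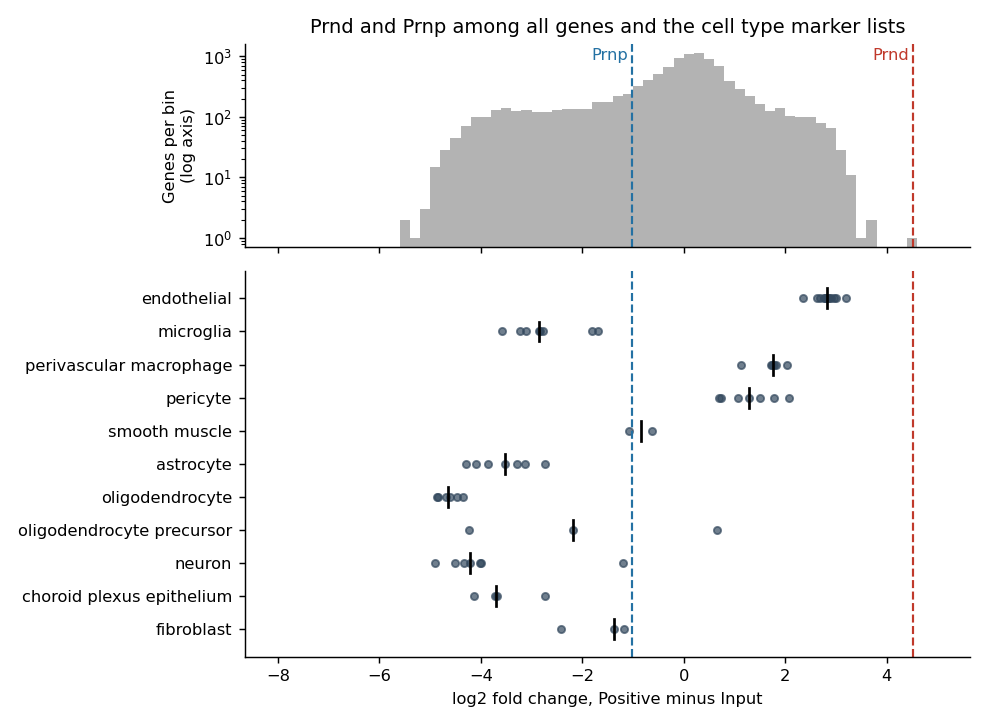
Log2 fold change (Positive minus Input) of all 10989 genes as a histogram with a log count axis (top) and of the marker genes of 11 cell types as points with their medians as black bars (bottom); dashed lines mark Prnd and Prnp. Prnd at 4.52 lies to the right of all other genes, and Prnp at -1.02 lies to the right of every neuronal, astrocyte, oligodendrocyte and microglial marker shown.

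Around the locus the table held 6 further genes within 500 kb, of which 1 was called higher and 3 lower. These are few genes to set against the 26.1% and 29.4% over the whole table. Smox, which encodes spermine oxidase and lies before Prnp, rose (186.4 ± 17.4 CPM in Positive and 125.5 ± 8.14 CPM in Input, SD, n = 3 each; log2 0.57 ± 0.13, adjusted p = 0.0049). Rassf2, a gene of the Ras-association domain family 36.7 kb beyond Prnd, fell (53.6 ± 15.8 CPM in Positive and 230.9 ± 62.4 CPM in Input; log2 -2.10 ± 0.27, adjusted p = 0.00019). Slc23a2, a vitamin C transporter gene, fell by less (log2 -0.79 ± 0.18, adjusted p = 0.0060). Prokr2, a prokineticin receptor gene kept through Input alone, fell to 1.58 ± 1.32 CPM in Positive, against 12.5 ± 3.11 CPM in Input (log2 -3.25 ± 0.57, adjusted p = 0.0013). Pcna, the DNA polymerase clamp, had log2 -0.14 ± 0.13 (adjusted p = 0.40) and Cds2, a phospholipid synthesis enzyme, 0.12 ± 0.14 (adjusted p = 0.49). Without scaling beyond library size, which moved the median log2 fold change of all genes to -0.13 (0.03 with TMM), Cds2 stood at -0.04. Without both libraries of 1227, neither Smox (adjusted p = 0.078) nor Slc23a2 (0.066) passed.

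**Figure D4:**
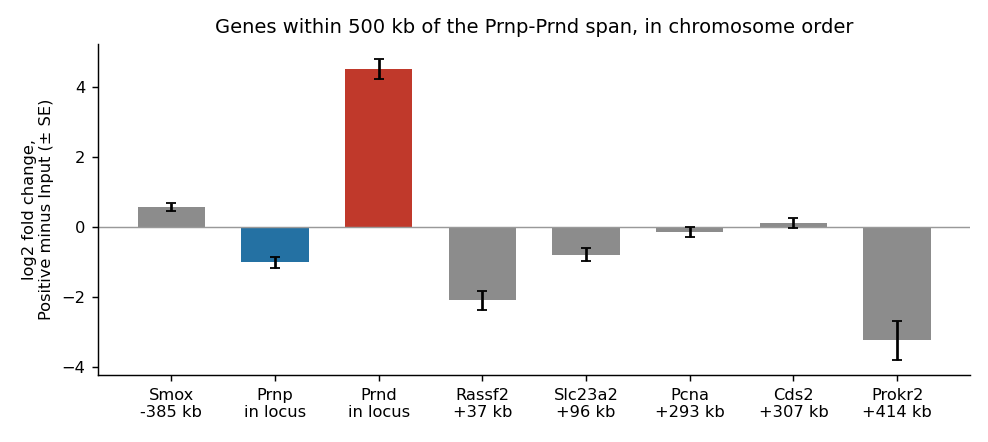
Log2 fold change (Positive minus Input, edgeR fit, bars with SE) of Prnp (blue), Prnd (red) and the 6 other genes of the table within 500 kb, in chromosome order with the distance in kb from the span of both genes. Smox is higher in Positive, and Rassf2, Slc23a2 and Prokr2 are lower, while Pcna and Cds2 did not pass.

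The profile over the 6 libraries most like that of Prnd, by Euclidean distance between log2 CPM centred on each gene's mean, belonged to Nos2 (distance 1.46), the gene of inducible nitric oxide synthase. Nos2 measured 92.5, 88.2 and 74.3 CPM in the Positive libraries 1222, 1223 and 1227, against 10.0, 4.40 and 7.23 CPM in those of Input. Srms, a kinase gene of the Src group (1.56), Nxpe2 (1.58), Stap2 (1.61), which encodes a signalling adaptor, and Pcdh12 (1.62), a protocadherin of endothelial cells, followed. Prnp had nearer neighbours in profile: Gde1 (0.150), a phosphodiesterase gene, Pebp1 (0.171), Gnb5 (0.193), a G protein subunit gene, Eri3 (0.194) and Tmem120a (0.197). Gde1 had 94.7 ± 5.36 CPM in Positive and 182.5 ± 15.9 CPM in Input (SD, n = 3 each). The search ran over 10526 genes. The distance takes in both the difference between fractions and the spread within them, and no function is read from it.

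Proteases linked to the prion protein, not all of them known to cut it, were measured beside it. Adam10, the protease that sheds the prion protein from the cell surface, rose to 562.1 ± 32.8 CPM in Positive, against 256.6 ± 8.87 CPM in Input (SD, n = 3 each; log2 1.13 ± 0.12, adjusted p = 6.76e-05). Adam17, a related sheddase, also rose (log2 0.77 ± 0.15, adjusted p = 0.0025). Adam9 had log2 -0.17 ± 0.18 (adjusted p = 0.46), and Bace1, the beta-secretase gene, fell (log2 -1.46 ± 0.15, adjusted p = 5.87e-05). In all 2 of 4 tested genes were higher and 1 lower, too few to set against the 30.4% and 19.9% of all genes kept in both fractions, as these 4 were.

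Among reported binding partners and modifiers of the prion protein 3 of 14 tested genes rose and 8 fell, with a median log2 fold change of -0.87. The share higher is near the 26.1% of all genes (29.4% were lower). The 11 kept in both fractions divided into 3 higher and 5 lower, beside 30.4% and 19.9% of all genes kept in both. Cav1, the main coat protein of caveolae, rose to 846.4 ± 52.6 CPM in Positive, against 145.5 ± 27.99 CPM in Input (log2 2.54 ± 0.17, adjusted p = 6.4e-06), and Vtn, the gene of vitronectin and also a pericyte marker, rose by log2 1.06 ± 0.21 (adjusted p = 0.0029). Ncam1, a neural adhesion molecule, fell to 32.8 ± 8.88 CPM in Positive, against 667.6 ± 100.9 CPM in Input (log2 -4.33 ± 0.23, adjusted p = 3.25e-06). Clu, the gene of the chaperone clusterin, fell (log2 -2.25 ± 0.14, adjusted p = 4.78e-06). The laminin receptor gene Rpsa had log2 -0.07 ± 0.16 (adjusted p = 0.71).

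Of 27 tested genes that build, attach or act on the GPI anchor, 12 fell, 1 rose and 14 did not pass, with a median log2 fold change of -0.35. Over all genes 29.4% were lower and 26.1% higher. Among the 22 kept in both fractions 10 fell, where 19.9% of all 8509 genes kept in both were lower. Pigt, a subunit of the transamidase that joins the anchor to proteins, fell to 76.5 ± 0.996 CPM in Positive, against 159.0 ± 21.9 CPM in Input (SD, n = 3 each; log2 -1.05 ± 0.14, adjusted p = 0.00025). Pigq, part of the complex for the first step of synthesis, fell by less (log2 -0.45 ± 0.13, adjusted p = 0.017), and did not pass without Positive 1227 (log2 -0.43), Input 1227 (-0.35) or both (-0.33), nor with limma on the deposited log2 values (-0.37). Pigz, kept through Input alone, had the largest fall of the list (log2 -3.50 ± 0.48, adjusted p = 0.00033). Gpld1, a phospholipase gene that acts on the anchor rather than building it, fell (log2 -2.85 ± 0.17, adjusted p = 4.34e-06). Mppe1, an enzyme that remodels the anchor, was the 1 gene that rose (log2 0.69 ± 0.20, adjusted p = 0.020). It was kept through Positive alone, and its call was lost without Positive 1222 (log2 0.66), Positive 1227 (0.70), Input 1227 (0.66), both libraries of 1222 (0.72) or of 1227 (0.68), or without TMM scaling (0.53).

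Other proteins listed as GPI-anchored were divided. Of 44 tested genes 15 rose and 25 fell, and 26 of the 44 were kept through 1 fraction alone. Of the 18 kept in both fractions 13 rose and 4 fell, with a median log2 fold change of 1.51. Over all genes kept in both, 30.4% were higher and the median was 0.16. The 13 include Ceacam1 (log2 2.04 ± 0.17), which is a transmembrane protein rather than a GPI-anchored one. Ly6c1, a surface marker of brain endothelium, rose to 2027 ± 311 CPM in Positive, against 328.8 ± 64.4 CPM in Input (log2 2.63 ± 0.20, adjusted p = 1.12e-05), and Ly6a and Ly6e rose by log2 2.65 ± 0.15 and 1.95 ± 0.13. Car4, a carbonic anhydrase on the luminal face of brain capillaries, had the largest rise of the list (1068 ± 111 CPM in Positive and 133.4 ± 14.2 CPM in Input; log2 3.00 ± 0.15, adjusted p = 2.94e-06). Cntn2, an axonal and glial contactin, had the largest fall (29.6 ± 7.20 CPM in Positive and 591.6 ± 132 CPM in Input; log2 -4.32 ± 0.25, adjusted p = 3.71e-06). Reads shared among the near-identical Ly6 genes could be split by the counting.

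**Figure D5:**
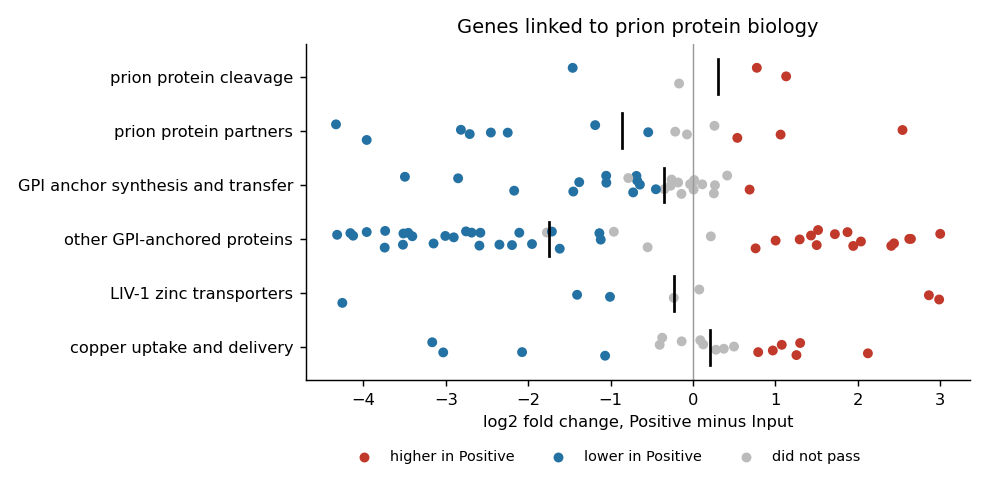
Log2 fold change (Positive minus Input) of each tested gene in 6 lists linked to prion protein biology, coloured red where higher in Positive, blue where lower and grey where the gene did not pass, with the list median as a black bar and vertical scatter for legibility only. The list of GPI-anchored proteins spreads from -4.32 for Cntn2 to 3.00 for Car4, and the genes of anchor synthesis spread from -3.50 for Pigz to 0.69 for Mppe1.

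The LIV-1 zinc transporters share a distant ancestry with the prion family. Of 7 tested genes 2 rose and 3 fell, and with so few genes these counts are not told apart from the 26.1% higher and 29.4% lower of all genes. Slc39a10, which encodes ZIP10, rose to 1600 ± 255 CPM in Positive, against 220.0 ± 39.7 CPM in Input (SD, n = 3 each; log2 2.86 ± 0.20, adjusted p = 7.54e-06). Slc39a8 rose by log2 2.99 ± 0.14 (adjusted p = 2.7e-06), and Slc39a12, kept through Input alone, fell (log2 -4.26 ± 0.32, adjusted p = 1.09e-05). Slc39a7 had log2 0.08 ± 0.13 (adjusted p = 0.64), and -0.08 without TMM scaling.

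Copper uptake and delivery, listed because the prion protein binds copper, had 6 of 18 tested genes higher and 4 lower. Of the 16 kept in both fractions 5 were higher and 3 lower, which is near the 30.4% and 19.9% of all genes kept in both and is no result about the list. Cp, the gene of the copper-carrying ferroxidase ceruloplasmin, rose to 383.9 ± 47.7 CPM in Positive, against 88.2 ± 1.99 CPM in Input (SD, n = 3 each; log2 2.12 ± 0.13, adjusted p = 5.14e-06). The copper importer gene Slc31a1 and the copper chaperone gene Atox1, named here after their values were seen, rose by log2 1.26 ± 0.14 (adjusted p = 7.98e-05) and 1.30 ± 0.14 (adjusted p = 8.02e-05). The metallothionein genes Mt1 and Mt3 fell (log2 -1.07 ± 0.17, adjusted p = 0.00084, and -3.17 ± 0.18, adjusted p = 3.62e-06). Sod1, the copper-zinc superoxide dismutase, had log2 0.37 ± 0.17 (adjusted p = 0.097). With the replicate number as a block (log2 0.37, adjusted p = 0.015) and without Positive 1222 (log2 0.52, adjusted p = 0.036) it passed.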

How the data were processed

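The authors deposited 1 table with estimated counts (raw columns, 95.3% of values not whole) and log2 normalised values for 6 libraries. The file headers give a minimum raw value of 50 in every library of 1 or both fractions, which held for all 10989 genes. Per the submitters' processing notes the build was mm10 and a tool was DESeq; which aligner and counter were run, and whether counting used strand, is not given in the sources used here. Log2 values the authors deposited served only for an alternative.

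Estimated counts were rounded and fitted with edgeR 4.0.16 (R 4.3.3) over all genes: scaling by TMM, filterByExpr at a count of 10 (0 genes removed), the quasi-likelihood test with a single term for fraction, and Benjamini-Hochberg adjustment at 0.05. The procedure was tested on simulated data in which far fewer genes changed than were called here. That test does not cover scaling under so many changes. SE is the size of the log2 fold change divided by the square root of F. DESeq2 1.42.0 and limma 3.58.1 served as alternatives. The depth was 4772866 to 52283556 summed counts a library. The biological coefficient of variation came to 21.6%. Lengths came from GENCODE M21, promoter windows from RefSeq (GRCm38.p6).

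Deviations from the fraction means correlated across genes between libraries of the same number, at 0.45 (1222), 0.23 (1223) and 0.30 (1227). Libraries of the same number were therefore set side by side in the description. The main fit and its p-values did not use this pairing, and the replicate number as a block served as an alternative. What libraries of the same number share was not tested. No label ties a number to an animal, and p-values rest on the spread between these libraries, not on a known number of animals.

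Members and lists were chosen with earlier results of these data known. Genes named are both members, all genes within 500 kb, the 5 genes nearest in profile to each member (predicted names left out) and, per list, the 3 with the highest level plus the largest rise and fall among those called. Fam124b, Rpsa, Slc31a1, Atox1 and Stmn2 fall outside this rule and were named after their values were seen. Also outside it are Pecam1 and Itgam, named as the genes of CD31 and CD11b, and Ceacam1, named as a listed protein without the GPI anchor. Of the other listed relatives of the prion protein, 0 of 3 (Sprn, Prn and Prnt) were analysed here.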

Additional observations from a re-analysis of the deposited data

How the results depend on the processing

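Under all 15 alternatives Prnd stayed between 4.21 (without Positive 1223) and 4.76 (without both libraries of 1222) on the log2 scale and Prnp between -1.17 (library size only) and -0.94. The difference in the Prnd part of the reads was 10.9 percentage points and ran from 9.13 to 12.1 when libraries were left out. With the replicate number as a block, Prnd had 4.38 and Prnp -1.02, and 3298 genes were higher and 3482 lower. The block moved no list count by more than 1.5 times. Among all genes 2870 were higher, and 1741 to 2755 when libraries were left out, lowest without both of 1227. With library size only, 2165 were higher and 3666 lower. The 1 rise in GPI anchor synthesis became 0 with library size only and 0 to 1 with libraries left out; the cause was not tested. Of 42 named genes under 15 alternatives (630 comparisons), 613 kept their direction and side of the threshold, 13 lost and 2 gained a call, and 2 changed sign without a call (Cds2 to -0.036 and Slc39a7 to -0.077, library size only). By Pearson correlation over the 6 libraries, 1 of the 5 genes nearest to Prnd (Nxpe2) and 2 of the 5 nearest to Prnp (Gde1 and Eri3) were named again. Within 1 Mb in place of 500 kb, 6 of 21 neighbours were higher and 6 lower. The 14 reads of Prnd in Input 1223 limit how closely its ratio is known there.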
